A study of Mus musculus with 16 samples.

Results

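The genes described here are the DNA-binding factors of the canonical Wnt pathway and the proteins that act on them in the nucleus, as measured in RNA from mouse prefrontal cortex. They are the TCF/LEF factors Tcf7, Tcf7l1, Tcf7l2 and Lef1, the TLE corepressors Tle1, Tle2 and Tle3, and the coactivators Bcl9, Bcl9l and Pygo2. They were chosen by gene symbol, and all 10 were found among the 23284 genes of the expression table. All 10 also passed the filter on low values, which kept the 13978 genes with a mean over all libraries of 0.5 FPKM (fragments per kilobase and per unit of sequencing depth) or more.

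TCF/LEF factors bind DNA through an HMG box and sit on Wnt target genes whether or not the pathway is active. Without β-catenin they carry TLE (Groucho) corepressors, which recruit histone deacetylases and keep the target silent. β-catenin that reaches the nucleus takes the place of the corepressor and brings in BCL9 or BCL9L, which in turn bind Pygopus, a reader of methylated histone H3, so that the target is transcribed. In the brain, Tcf7l2 is best known from thalamic neurons and the oligodendrocyte lineage, while Lef1 is a marker of brain endothelium and of Wnt-responsive progenitors.

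The study asked how raised or reduced β-catenin (β-cat) changes gene expression in the prefrontal cortex, with 4 libraries for each of 4 genotypes. APC cKOs (APC fl/fl) lacked APC, the scaffold that marks β-cat for destruction. β-cat cOEs (ctnnb1 fl(ex3)/+) carried 1 allele with a floxed exon 3, whose loss leaves a β-cat that escapes this destruction. With floxed alleles of both genes (APC fl/fl and ctnnb1 fl/fl), APC/β-cat cKOs were made to lack both proteins. All mutants carried the CamKIIα-Cre-93 transgene, which acts mainly in excitatory neurons of the forebrain, while the tissue also held interneurons, glia and vessels. Controls were Cre-negative littermates pooled from all lines, and the mice were 2 to 3 months old and of both sexes. The tissue held many cell types, so a gene's level per cell and the number of cells that express it cannot be told apart.

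Where the genes lie, and what stands before their start sites, is shown first because several TCF/LEF genes are themselves read by TCF/LEF factors in other tissues. In the deposited mm10 coordinates Tcf7 spans chr11:52252604-52282571, Tcf7l1 chr6:72626380-72788956, Tcf7l2 chr19:55741810-55933655 and Lef1 chr3:131110471-131223331. The TLE genes span chr4:72117142-72200919 for Tle1, chr10:81575287-81590845 for Tle2 and chr9:61372366-61418497 for Tle3. The coactivators span chr3:97204628-97216507 for Bcl9, chr9:44499136-44510412 for Bcl9l and chr3:89430837-89435128 for Pygo2. The Bcl9 row covers 12.5% and the Bcl9l row 38.7% of the span that RefSeq gives these genes, against 81.3% or more for the other 8, so the values of these coactivators rest on part of the gene. Tcf7l2 has 2 start sites in the table and each of the other 9 genes has 1.

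RefSeq promoter windows for GRCm38.p6, the same assembly as mm10, were matched by symbol for 9 of the 10 genes, and Bcl9l had no entry. The 9 genes have 16 windows, and the 250 bases before each start were searched on both strands for letters that TCF/LEF factors bind. The core letters CTTTGAT were in 0 of the 16 windows and in 3.21% of all 32851 windows of the same length. A weaker variant of the core, CTTTGTT, was in 1 of the 16 and in 5.03% of all windows. Its 1 match lies before the internal start of Tcf7l2, beginning 14 bases upstream on the gene's own strand. That window and the first Lef1 window are printed as the window with a match and a typical one without, with the matched letters in capitals.
Tcf7l2, internal start (chr19:55895071-55895320, plus strand): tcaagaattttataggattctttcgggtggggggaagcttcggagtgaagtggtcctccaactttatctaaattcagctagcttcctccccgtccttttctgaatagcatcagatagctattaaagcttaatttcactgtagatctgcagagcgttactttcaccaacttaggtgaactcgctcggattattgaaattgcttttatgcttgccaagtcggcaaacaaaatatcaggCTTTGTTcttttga
Lef1, first start (chr3:131110047-131110296, plus strand): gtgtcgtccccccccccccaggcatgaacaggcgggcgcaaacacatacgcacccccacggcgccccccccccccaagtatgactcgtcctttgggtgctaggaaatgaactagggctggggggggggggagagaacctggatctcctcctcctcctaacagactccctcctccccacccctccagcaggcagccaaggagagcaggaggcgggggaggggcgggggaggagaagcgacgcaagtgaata
The Lef1 window holds no match and is 66.4% G and C, against 40.8% for the internal Tcf7l2 window. A match is only a run of letters, and sites farther from the start were not searched.

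The labels and tissue were checked on the targeted genes and on marker genes. Apc was at 43.9 ± 4.21 FPKM in controls and 44.5 ± 5.11 FPKM in β-cat cOEs (SD, n = 4), but 10.05 ± 2.30 FPKM in APC/β-cat cKOs and 11.7 ± 3.88 FPKM in APC cKOs, and its low libraries were the 8 labelled as lacking APC. Ctnnb1, which encodes β-cat, was at 151 to 182 FPKM in all 16 libraries, and a gene value does not show which exons a transcript holds. These genes therefore did not tell the labels of controls and β-cat cOEs apart. Ctnnb1 was at 157.3 to 182.0 FPKM in APC cKOs and 150.9 to 156.7 FPKM in APC/β-cat cKOs. That log2 difference of 0.14 (limma adjusted p = 0.295) is no firm check of those labels. The cortical markers Slc17a7 (395 to 532 FPKM) and Camk2a (559 to 718 FPKM) were high in every library. Summed markers of striatal projection neurons ran from 58.5 to 375 FPKM between libraries, with overlapping ranges in the 4 genotypes. By Xist and Y-linked genes, APC cKO library 1 and control library 1 came from female mice and the other 14 from males. The number of fragments per library is unknown, and genes listed at 0, 5726 to 6649 per library, stand in for it.

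In the prefrontal cortex the coactivators and corepressors were present at several times the level of the factors they act on. FPKM is scaled by transcript length, so levels can be set side by side between genes. For Bcl9 and Bcl9l, whose rows cover 12.5% and 38.7% of the RefSeq span, the place in the order is less sure. Pygo2 had the highest mean, 16.5 FPKM over the 16 libraries (14.8 to 19.0), followed by Tle3 with 9.24 FPKM over the 16 libraries (7.54 to 12.3). Tle1, Tle2 and Bcl9 came next and could not be ordered, with means of 6.24, 6.0 and 5.98 FPKM, and Tle1 exceeded Tle2 in 8 of 16 libraries. Bcl9l had 4.69 FPKM over the 16 libraries (3.87 to 5.14) and was below Bcl9 in all 16, though their ranges overlapped.

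Below Bcl9l came a gap, and all TCF/LEF factors lay under it. Tcf7 had 1.56 FPKM over the 16 libraries (0.906 to 2.11), so Bcl9l was 3.01 times higher in mean and the ranges did not overlap. Lef1 had 1.04 FPKM over the 16 libraries (0.686 to 1.46), Tcf7l1 0.853 FPKM over the 16 libraries (0.580 to 1.30) and Tcf7l2 0.647 FPKM over the 16 libraries (0.440 to 0.886). Each of these neighbours differed in mean by 1.22 to 1.5 times with overlapping ranges, and the higher gene exceeded the lower in 14 (Tcf7 and Lef1), 11 (Lef1 and Tcf7l1) and 14 (Tcf7l1 and Tcf7l2) of 16 libraries. Among the 13978 genes tested, 87.0% had a higher mean than Tcf7 and 97.3% a higher mean than Tcf7l2. The same share was 36.3% for Pygo2.

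**Figure D1:**
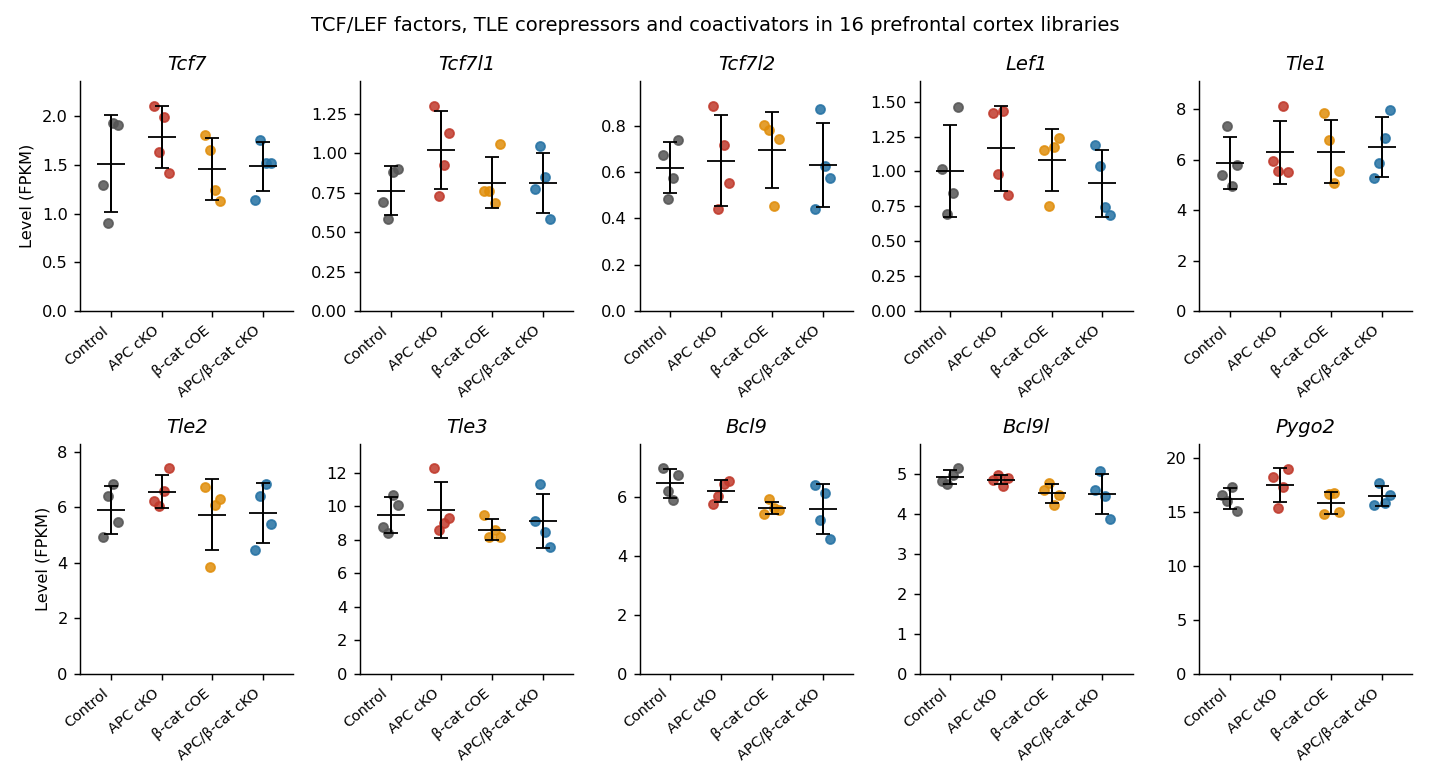
Level of each of the 10 genes in FPKM (y axis, from 0, a separate scale per panel) in the 4 genotypes (x axis). Points are libraries 1 to 4 from left to right, and black bars give the mean ± SD, n = 4. In every panel the points of all genotypes overlap, and TCF/LEF factors stay at 2.11 FPKM or below while Pygo2 lies between 14.8 and 19.0 FPKM.

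Among the TCF/LEF factors, Tcf7l1, which acts mainly as a repressor of Wnt targets, had the largest difference of any of the 10 genes. Tcf7l1 was at 0.688, 0.580, 0.882 and 0.900 FPKM in the 4 control libraries and at 0.773, 1.05, 0.846 and 0.585 FPKM in APC/β-cat cKOs. It was at 0.758, 0.759, 0.685 and 1.06 FPKM in β-cat cOEs and at 1.30, 0.731, 0.928 and 1.13 FPKM in APC cKOs. The highest values were APC cKO libraries 1 and 4, but APC cKO library 2 lay below 2 of the controls. The group means were 0.762 ± 0.155 FPKM among controls, 0.813 ± 0.191 FPKM among APC/β-cat cKOs, 0.814 ± 0.165 FPKM among β-cat cOEs and 1.02 ± 0.247 FPKM among APC cKOs (SD, each of 4 libraries). Against controls its difference in log2 was 0.086 in β-cat cOEs (95% interval -0.37 to 0.54), 0.075 in APC/β-cat cKOs (-0.38 to 0.53) and 0.37 in APC cKOs (-0.084 to 0.83), with limma adjusted p = 0.975, 0.905 and 0.581. Without APC cKO library 1 the difference was 0.25, and without APC cKO library 2 it was 0.51 (unadjusted p = 0.0363). The size of the difference thus depended on which library was left out.

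Tcf7, which encodes TCF1 and is itself a known Wnt target, varied more among controls than its mean did between genotypes. Tcf7 was at 1.30, 0.906, 1.93 and 1.91 FPKM in the 4 control libraries and at 1.14, 1.76, 1.52 and 1.52 FPKM in APC/β-cat cKOs. It was at 1.81, 1.65, 1.24 and 1.13 FPKM in β-cat cOEs and at 2.11, 1.64, 1.99 and 1.42 FPKM in APC cKOs. Control library 2 was the lowest of all 16 and APC cKO library 1 the highest. In mean it was at 1.51 ± 0.50 FPKM among controls, 1.49 ± 0.254 FPKM among APC/β-cat cKOs, 1.46 ± 0.321 FPKM among β-cat cOEs and 1.79 ± 0.318 FPKM among APC cKOs (SD, each of 4 libraries). Compared with controls, the log2 level differed by -0.014 in β-cat cOEs (95% interval -0.49 to 0.46), 0.019 in APC/β-cat cKOs (-0.46 to 0.50) and 0.27 in APC cKOs (-0.21 to 0.75), with limma adjusted p = 0.999, 0.982 and 0.708. Without control library 2 the difference in APC cKOs was 0.064, and without control library 3 it was 0.40.

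Lef1, another factor that is also a known Wnt target, was low and scattered. Lef1 was at 1.01, 0.698, 0.845 and 1.46 FPKM in the 4 control libraries and at 1.19, 1.04, 0.747 and 0.686 FPKM in APC/β-cat cKOs. It was at 1.15, 0.753, 1.18 and 1.24 FPKM in β-cat cOEs and at 1.42, 0.980, 1.43 and 0.8294 FPKM in APC cKOs. Its highest library was a control, and its values in controls covered nearly the whole range of the mutants. Averaged over 4 libraries, it was at 1.004 ± 0.330 FPKM among controls, 0.915 ± 0.239 FPKM among APC/β-cat cKOs, 1.08 ± 0.223 FPKM among β-cat cOEs and 1.16 ± 0.306 FPKM among APC cKOs (SD, each of 4 libraries). The log2 differences from control were 0.12 in β-cat cOEs (95% interval -0.40 to 0.64), -0.11 in APC/β-cat cKOs (-0.63 to 0.42) and 0.21 in APC cKOs (-0.31 to 0.73), with limma adjusted p = 0.974, 0.879 and 0.800. Without control library 2 the difference in APC cKOs was 0.067, and without control library 4 it was 0.39.

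Tcf7l2, which encodes TCF4, was the least abundant of the 10 genes. Tcf7l2 was at 0.675, 0.485, 0.575 and 0.737 FPKM in the 4 control libraries and at 0.440, 0.873, 0.627 and 0.574 FPKM in APC/β-cat cKOs. It was at 0.801, 0.780, 0.452 and 0.744 FPKM in β-cat cOEs and at 0.886, 0.440, 0.718 and 0.551 FPKM in APC cKOs. In 3 genotypes its lowest library lay at 0.44 to 0.45 FPKM, and each genotype had at least 1 library above 0.73 FPKM. Its means by genotype were 0.618 ± 0.111 FPKM among controls, 0.628 ± 0.181 FPKM among APC/β-cat cKOs, 0.694 ± 0.163 FPKM among β-cat cOEs and 0.649 ± 0.195 FPKM among APC cKOs (SD, each of 4 libraries). Relative to controls, the difference in log2 was 0.13 in β-cat cOEs (95% interval -0.39 to 0.65), 0.0013 in APC/β-cat cKOs (-0.52 to 0.52) and 0.036 in APC cKOs (-0.48 to 0.56), with limma adjusted p = 0.974, 0.999 and 0.975.

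Of the 3 TLE corepressors among the 10 genes, Tle3 was the most abundant in mean, though Tle4, described below, was higher (15.5 FPKM in controls). Tle3 was at 8.77, 8.42, 10.7 and 10.1 FPKM in the 4 control libraries and at 9.14, 11.3, 8.43 and 7.54 FPKM in APC/β-cat cKOs. It was at 9.49, 8.15, 8.56 and 8.16 FPKM in β-cat cOEs and at 12.3, 8.60, 8.97 and 9.29 FPKM in APC cKOs. APC cKO library 1 and APC/β-cat cKO library 2 were the highest, and β-cat cOEs were the tightest group. The group means were 9.49 ± 1.07 FPKM among controls, 9.10 ± 1.61 FPKM among APC/β-cat cKOs, 8.59 ± 0.629 FPKM among β-cat cOEs and 9.78 ± 1.67 FPKM among APC cKOs (SD, each of 4 libraries). Against controls its difference in log2 was -0.14 in β-cat cOEs (95% interval -0.41 to 0.13), -0.068 in APC/β-cat cKOs (-0.34 to 0.20) and 0.035 in APC cKOs (-0.23 to 0.31), with limma adjusted p = 0.950, 0.838 and 0.948.

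Tle1 had overlapping values in all genotypes. Tle1 was at 5.39, 7.34, 4.97 and 5.80 FPKM in the 4 control libraries and at 5.28, 5.85, 6.85 and 7.98 FPKM in APC/β-cat cKOs. It was at 7.86, 6.78, 5.07 and 5.56 FPKM in β-cat cOEs and at 5.96, 5.54, 8.14 and 5.52 FPKM in APC cKOs. Each genotype had a library above 7.3 FPKM and a library below 5.6 FPKM. In mean it was at 5.88 ± 1.03 FPKM among controls, 6.49 ± 1.19 FPKM among APC/β-cat cKOs, 6.32 ± 1.25 FPKM among β-cat cOEs and 6.29 ± 1.25 FPKM among APC cKOs (SD, each of 4 libraries). Compared with controls, the log2 level differed by 0.10 in β-cat cOEs (95% interval -0.26 to 0.46), 0.14 in APC/β-cat cKOs (-0.22 to 0.50) and 0.093 in APC cKOs (-0.26 to 0.45), with limma adjusted p = 0.974, 0.728 and 0.879.

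Tle2 was similar in level to Tle1. Tle2 was at 4.93, 6.42, 6.83 and 5.46 FPKM in the 4 control libraries and at 4.47, 6.42, 6.85 and 5.40 FPKM in APC/β-cat cKOs. It was at 6.73, 3.85, 6.07 and 6.29 FPKM in β-cat cOEs and at 6.22, 6.05, 6.60 and 7.40 FPKM in APC cKOs. All APC cKO libraries were above 6 FPKM, but so were 2 controls, 3 β-cat cOEs and 2 APC/β-cat cKOs. Averaged over 4 libraries, it was at 5.91 ± 0.869 FPKM among controls, 5.79 ± 1.07 FPKM among APC/β-cat cKOs, 5.74 ± 1.28 FPKM among β-cat cOEs and 6.57 ± 0.602 FPKM among APC cKOs (SD, each of 4 libraries). The log2 differences from control were -0.061 in β-cat cOEs (95% interval -0.42 to 0.29), -0.037 in APC/β-cat cKOs (-0.39 to 0.32) and 0.16 in APC cKOs (-0.20 to 0.51), with limma adjusted p = 0.975, 0.947 and 0.775.

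Among the coactivators, Bcl9, which links β-cat to Pygopus, had the only difference with an interval that did not reach 0. Bcl9 was at 6.99, 6.23, 5.92 and 6.78 FPKM in the 4 control libraries and at 6.43, 5.23, 6.16 and 4.57 FPKM in APC/β-cat cKOs. It was at 5.44, 5.94, 5.63 and 5.58 FPKM in β-cat cOEs and at 5.77, 6.04, 6.46 and 6.58 FPKM in APC cKOs. The β-cat cOEs lay almost wholly under the controls, with only their highest library (5.94 FPKM) above the lowest control (5.92 FPKM), and APC/β-cat cKO library 4 was the lowest of all 16. Its means by genotype were 6.48 ± 0.492 FPKM among controls, 5.60 ± 0.856 FPKM among APC/β-cat cKOs, 5.65 ± 0.214 FPKM among β-cat cOEs and 6.21 ± 0.376 FPKM among APC cKOs (SD, each of 4 libraries). Relative to controls, the difference in log2 was -0.19 in β-cat cOEs (95% interval -0.40 to 0.012), -0.22 in APC/β-cat cKOs (-0.42 to -0.012) and -0.059 in APC cKOs (-0.26 to 0.15), with limma adjusted p = 0.946, 0.334 and 0.865. The unadjusted p of Bcl9 in APC/β-cat cKOs was 0.0394. Without APC/β-cat cKO library 4 the difference there was -0.13, a change of over 1.5 times (unadjusted p = 0.162), and without APC/β-cat cKO library 1 it was -0.29 (unadjusted p = 0.00955, adjusted p = 0.123). With only the groups compared, the unadjusted limma p was 0.102 in APC/β-cat cKOs and 0.0325 in β-cat cOEs (adjusted p = 0.529 and 0.848). With quantile normalization both were under 0.05 unadjusted (0.0487 and 0.0399), and neither was called.

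Bcl9l, the paralogue of Bcl9, had the smallest spread relative to its mean in controls and APC cKOs. Bcl9l was at 4.82, 4.74, 4.98 and 5.14 FPKM in the 4 control libraries and at 4.60, 5.07, 4.44 and 3.87 FPKM in APC/β-cat cKOs. It was at 4.58, 4.78, 4.21 and 4.48 FPKM in β-cat cOEs and at 4.85, 4.98, 4.70 and 4.89 FPKM in APC cKOs. Controls and APC cKOs stayed between 4.70 and 5.14 FPKM, while 3 of 4 libraries in each of the other genotypes were below 4.70 FPKM. The group means were 4.92 ± 0.178 FPKM among controls, 4.50 ± 0.493 FPKM among APC/β-cat cKOs, 4.51 ± 0.237 FPKM among β-cat cOEs and 4.85 ± 0.117 FPKM among APC cKOs (SD, each of 4 libraries). Against controls its difference in log2 was -0.12 in β-cat cOEs (95% interval -0.29 to 0.045), -0.13 in APC/β-cat cKOs (-0.30 to 0.035) and -0.018 in APC cKOs (-0.19 to 0.15), with limma adjusted p = 0.950, 0.452 and 0.960. Without APC/β-cat cKO library 4 the difference in APC/β-cat cKOs was -0.065, a change of over 1.5 times, and without APC/β-cat cKO library 2 it was -0.19 (unadjusted p = 0.0275).

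Pygo2, the Pygopus protein that reads methylated histone H3, was the most abundant. Pygo2 was at 16.6, 16.03, 17.3 and 15.1 FPKM in the 4 control libraries and at 15.7, 17.7, 15.8 and 16.6 FPKM in APC/β-cat cKOs. It was at 14.8, 16.7, 16.8 and 15.03 FPKM in β-cat cOEs and at 18.2, 15.4, 17.3 and 19.0 FPKM in APC cKOs. APC cKO libraries 1 and 4 were the highest and APC cKO library 2 lay below 3 of the controls. In mean it was at 16.3 ± 0.952 FPKM among controls, 16.4 ± 0.928 FPKM among APC/β-cat cKOs, 15.8 ± 1.05 FPKM among β-cat cOEs and 17.5 ± 1.56 FPKM among APC cKOs (SD, each of 4 libraries). Compared with controls, the log2 level differed by -0.039 in β-cat cOEs (95% interval -0.19 to 0.11), 0.017 in APC/β-cat cKOs (-0.14 to 0.17) and 0.10 in APC cKOs (-0.051 to 0.26), with limma adjusted p = 0.974, 0.943 and 0.655. Between APC cKOs and β-cat cOEs it differed by 0.14 (-0.012 to 0.30), with an unadjusted p of 0.0679. Without APC cKO library 2, Pygo2 differed from controls by 0.16 (unadjusted p = 0.0342) and from β-cat cOEs by 0.20 (unadjusted p = 0.0112).

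**Figure D2:**
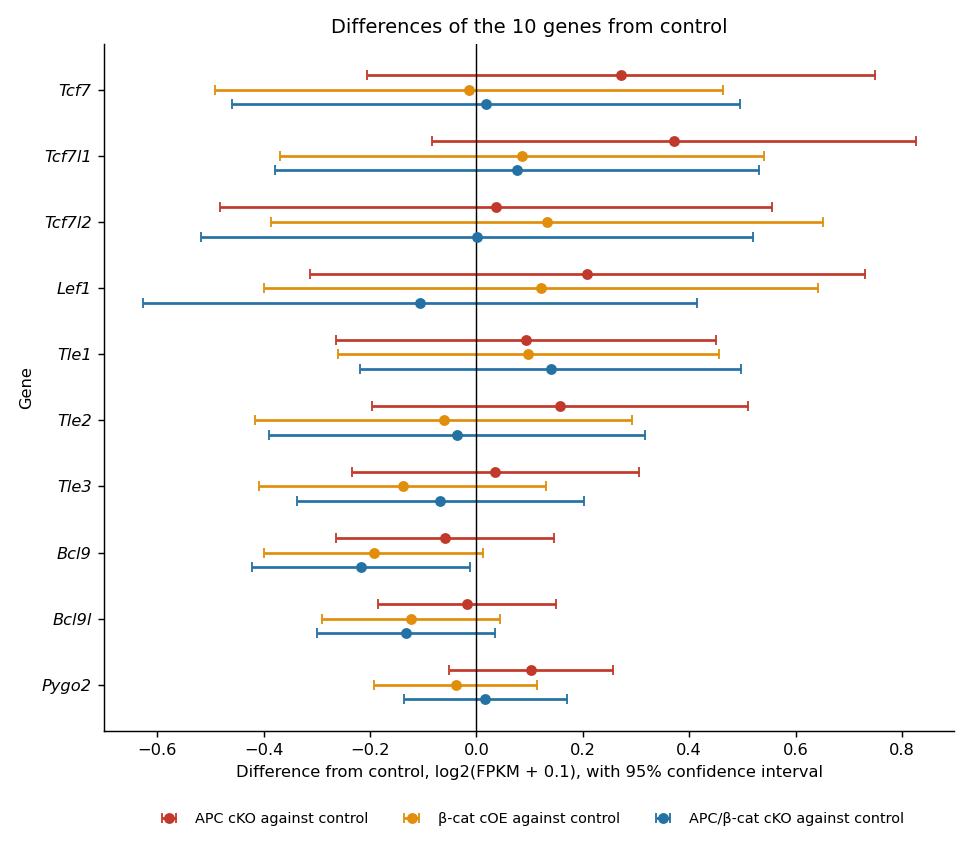
Difference of each mutant genotype from control for the 10 genes on the log2(FPKM + 0.1) scale (x axis), with 95% confidence intervals from limma (horizontal bars), 4 libraries per genotype. All 30 intervals but that of Bcl9 in APC/β-cat cKOs (-0.42 to -0.012) reach 0, and those of the TCF/LEF factors are the widest.

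Counted over the 10 genes, 0 passed the test in any comparison with control. The test was limma on log2(FPKM + 0.1) in a model of all 16 libraries, with Benjamini-Hochberg adjustment over the 13978 genes and a call at an adjusted p under 0.05. In APC cKOs 0 of 10 genes were called, against 0.0429% of all genes, and 0 of 10 had an unadjusted p under 0.05, against 10% of all genes. Their differences were above 0 for 8 and below 0 for 2, with a median of 0.098 beside -0.0042 for all genes. Leaving out APC cKO library 1 or 3 or control library 2 made that split 6 and 4, and the median was 0.17 without APC cKO library 2. Over all 3 mutant lines, 16 of the 30 differences from control changed sign when some library was left out, 7 among APC/β-cat cKOs, 5 among β-cat cOEs and 4 in APC cKOs.

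In β-cat cOEs 0 of 10 were called (0.0143% of all genes), and 0 of 10 had an unadjusted p under 0.05 (5.07% of all genes). The differences were above 0 for 4 and below 0 for 6, with a median of -0.027 beside -0.0036. That split was 2 and 8 without control library 2, and 6 and 4 with a median of 0.018 without control library 3. In APC/β-cat cKOs 0 of 10 were called (0.207% of all genes), and 1 of 10, Bcl9, had an unadjusted p under 0.05 (14.2% of all genes). Here 5 were above 0 and 5 below, with a median of -0.018 beside 0.0031. That split rested on single libraries, being 1 and 9 with a median of -0.12 without APC/β-cat cKO library 2, and 7 and 3 with a median of 0.0099 without library 4. The groups overlapped for all 10 genes in these comparisons, while they did not overlap for 5.21% of all genes among APC/β-cat cKOs, 3.08% among β-cat cOEs and 5.47% in APC cKOs. The 3 comparisons share the same 4 controls and are not independent of each other.

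The mutant lines were also set against each other, since APC cKOs and APC/β-cat cKOs both lack APC and differ in β-cat. In that comparison 0 of 10 genes were called (0.215% of all genes), 0 of 10 had an unadjusted p under 0.05 (10.3%) and 0 of 10 had groups without overlap (5.49%). In mean, 9 of the 10 were higher in APC cKOs, with a median of 0.14 beside -0.00083 for all genes, and Lef1 had the largest difference, 0.31 (-0.21 to 0.84, limma adjusted p = 0.668). Tle1 was the exception, at -0.046 (-0.40 to 0.31). Without APC cKO library 1 the split was 7 and 3, and without APC/β-cat cKO library 4 all 10 were higher but the median was 0.079. Between β-cat cOEs and APC/β-cat cKOs 0 of 10 were called (0.229%), 0 of 10 had an unadjusted p under 0.05 (11.9%) and 0 of 10 had groups without overlap (6.30%), with 5 above 0 and 5 below. Between APC cKOs and β-cat cOEs 0 of 10 were called (0.0429%), 0 of 10 had an unadjusted p under 0.05 (7.57%) and 0 of 10 had groups without overlap (5.20%), with 8 of 10 higher in APC cKOs.

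With the lines with raised β-cat, APC cKO and β-cat cOE, set together against controls and APC/β-cat cKOs, 0 of 10 genes were called (0.0572% of all genes) and 0 of 10 had an unadjusted p under 0.05 (8.84%). Lef1 (0.22, 95% interval -0.15 to 0.59) and Tcf7l1 (0.19, -0.13 to 0.51) had the largest differences. For any difference among the 4 genotypes, limma's F test called 0 of 10 (0.250% of all genes), and 0 of 10 had an unadjusted p under 0.05 (12%). Over the 60 combinations of gene and pairwise comparison, 1 had an unadjusted p under 0.05, the smallest adjusted p was 0.334 and the largest difference was 0.37.

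A missed threshold does not show that levels were equal, and the precision differed between the groups of genes. The 95% interval of a difference between genotypes reached 0.15 on the log2 scale to either side for Pygo2, 0.17 for Bcl9l and 0.21 for Bcl9. It reached 0.27 for Tle3, 0.35 for Tle2 and 0.36 for Tle1. For the TCF/LEF factors it reached 0.45 (Tcf7l1) to 0.52 (Lef1 and Tcf7l2). There a fold of 1.44 or less in FPKM + 0.1 lies within the half-width. The widest intervals in any pairwise comparison ran down to 0.648-fold and up to 1.78-fold in FPKM + 0.1. A change beyond these bounds on that scale was outside the interval for every gene. For low genes such as the TCF/LEF factors, the same bounds allow a somewhat larger fold in FPKM. With 4 libraries per genotype a call needed a larger change in the TCF/LEF factors than in the coactivators.

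The make-up of the TCF/LEF family was described as shares of the summed FPKM of its 4 genes in each library. The sum was 3.90 ± 0.985 FPKM among controls, 3.84 ± 0.603 among APC/β-cat cKOs, 4.05 ± 0.402 among β-cat cOEs and 4.63 ± 0.926 in APC cKOs (SD, each of 4 libraries), with overlapping ranges. Tcf7 held the largest mean share, 38.01% over the 16 libraries (27.1% to 45.6%), followed by Lef1 with 25.4% (19.1% to 33.5%). Tcf7l1 held 20.8% (16.8% to 28.7%) and Tcf7l2 15.8% (11.6% to 19.8%). Tcf7 was the largest of the 4 in 14 libraries, and Lef1 in the other 2, β-cat cOE library 4 and APC/β-cat cKO library 1.

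**Figure D3:**
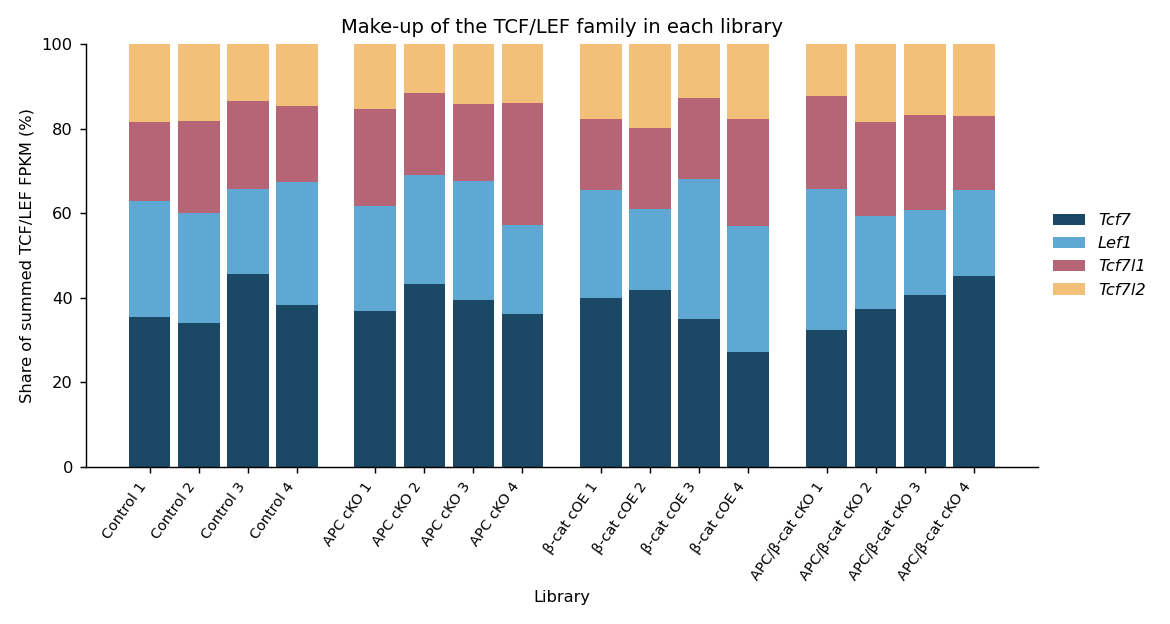
Share of Tcf7, Lef1, Tcf7l1 and Tcf7l2 in their summed FPKM (y axis, percent) in each of the 16 libraries (x axis, grouped by genotype). Bars stack to 100%, and the share of Tcf7 runs from 27.1% in β-cat cOE library 4 to 45.6% in control library 3.

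Tle3 made up 43.0% of the summed FPKM of the 3 TLE genes over all libraries (36.04% to 50.1%), Tle1 29.1% (22.1% to 38.1%) and Tle2 27.9% (20.5% to 33.3%). The summed level of these 3 genes, without Tle4 and Aes, was 5.37 times the summed TCF/LEF level in mean. It ran from 4.26 times in control library 4 to 8.31 times in control library 2. This ratio was 5.77 ± 1.76 among controls, 5.62 ± 0.552 among APC/β-cat cKOs, 5.10 ± 0.389 among β-cat cOEs and 4.98 ± 0.622 in APC cKOs (SD, each of 4 libraries). The range of the controls covered that of all mutants.

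Some libraries stood apart for several of the 10 genes. APC cKO library 1 was the highest of 16 for Tcf7, Tcf7l1, Tcf7l2 and Tle3, and APC/β-cat cKO library 4 the lowest of 16 for Lef1, Tle3, Bcl9 and Bcl9l. APC cKO library 1 also had the highest summed markers of neuroblasts (62.6 FPKM, the other 15 libraries 13.4 to 44.9) and of astrocytes (512 FPKM, the others 319 to 435), and came from a female. APC/β-cat cKO library 4 had the most genes listed at 0, 6649. The part of these differences in the values of the 10 genes was not tested.

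**Figure D4:**
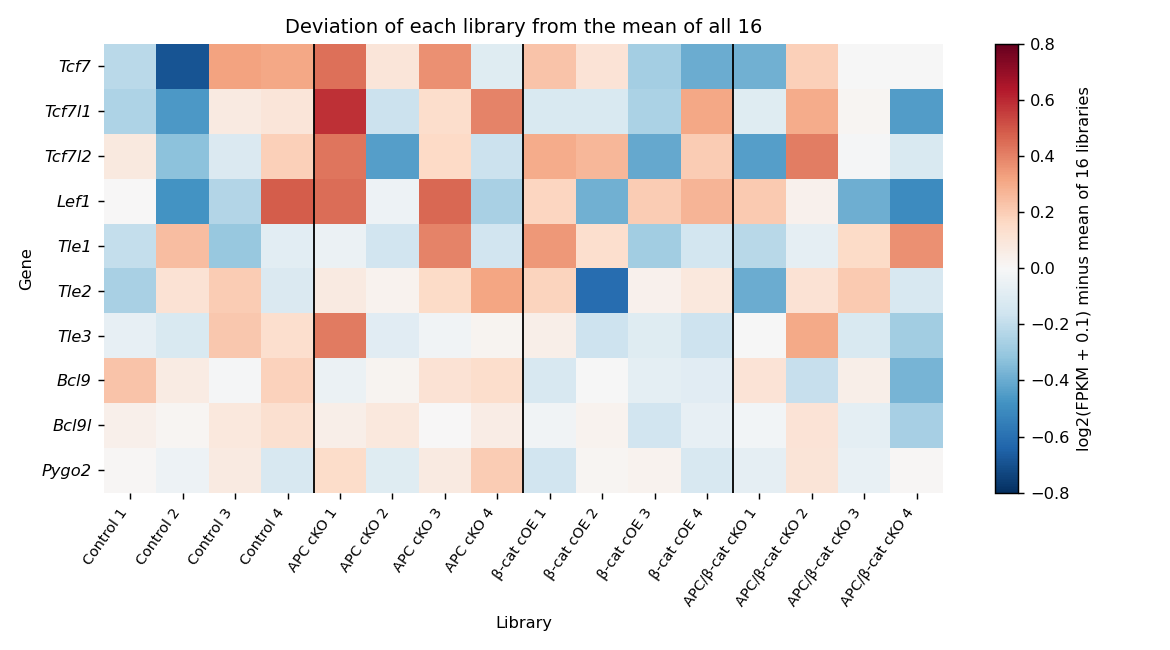
Deviation of each library (columns, grouped by genotype with black lines between) from the mean of all 16 for the 10 genes (rows), on the log2(FPKM + 0.1) scale, red above and blue below. Deviations run from -0.69 to 0.58, with red cells for the TCF/LEF factors in APC cKO library 1 and blue cells for Lef1, Tcf7l1, Bcl9 and Tle3 in APC/β-cat cKO library 4.

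Across the 16 libraries, with the mean of each genotype taken off, the TCF/LEF factors tended to deviate in the same direction, but this was not particular to them. All 6 pairs had a Pearson correlation above 0, from 0.29 to 0.64 with a median of 0.41, while the 45 pairs of all 10 genes ran from -0.38 to 0.73 with a median of 0.19. The highest was Tcf7l1 with Tle3 (r = 0.73, Spearman rho = 0.74, r = 0.79 without the 2 libraries farthest from the median of Tcf7l1). Tle3 also correlated with Tcf7, Tcf7l2 and Lef1 (r = 0.56, 0.55 and 0.51), and Bcl9l with all TCF/LEF factors (0.25 to 0.55). The weakest TCF/LEF pair was Tcf7 with Lef1 (r = 0.29, rho = 0.20). These are descriptions: both values of a pair come from the same library, so they share its depth and dissection.

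By the same measure, over 16 libraries and among genes that averaged 2 FPKM or more, the gene most like each TCF/LEF factor was Fcgrt for Tcf7 (r = 0.93), Vav2 for Tcf7l1 (0.89), Kcna4 for Tcf7l2 (0.92) and Acss1 for Lef1 (0.80). For the corepressors it was C630043F03Rik for Tle1 (0.86) and Leng8 for Tle2 (0.92), and for the coactivators Slc36a4 for Bcl9 (0.94), Ikbip for Bcl9l (0.88) and Eral1 for Pygo2 (0.85). The second gene of each was Snap23, Traf4, Cyp2j9, Cnnm4, Nfkbil1, 6720401G13Rik, Slc9a7, Tubgcp5 and Tmem101, in the same order, with r from 0.78 to 0.93. The likeness was ranked over 11676 or 11677 genes compared. The highest of so many values over 16 libraries is raised by the selection itself. Without the 2 libraries farthest from the median, r for Ikbip and Bcl9l was 0.57.

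The rest of the nuclear Wnt machinery was read from a list of 34 genes that holds the other TLE and Pygopus genes, deacetylases, acetyltransferases, Mediator subunits and inhibitors of β-cat. Of the 33 that passed the filter, 0 were called against controls in any line. At an unadjusted p under 0.05, 2 were higher (Aes and Cby1) and 7 lower in APC/β-cat cKOs (14.2% of all genes passed this p), where their median difference was -0.061 beside 0.0031 for all genes. In APC cKOs 0 were higher and 2 lower (Nlk and Ssbp2), against 10% of all genes, with a median of -0.016 beside -0.0042. In β-cat cOEs 1 was higher (Hdac1) and 1 lower (Nlk), against 5.07% of all genes, with a median of -0.041 beside -0.0036.

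Tle4, the remaining full-length TLE gene, was at 19.0, 15.01, 12.7 and 15.2 FPKM in controls and 13.5, 12.1, 12.95 and 13.4 FPKM in APC/β-cat cKOs. It differed there by -0.24 (95% interval -0.47 to -0.0044, unadjusted p = 0.0463, limma adjusted p = 0.345). Aes, the short TLE relative that lacks the WD repeats, was far higher than the other TLE genes, at 275 ± 15.6 FPKM in controls. Its level in APC/β-cat cKOs was 309 ± 34.04 FPKM (SD of 4 libraries, unadjusted p = 0.0225, limma adjusted p = 0.294). Pygo1, the paralogue of Pygo2, was at 6.43 ± 0.563 FPKM in controls and 7.42 ± 0.919 FPKM in β-cat cOEs, and did not pass the test. Nlk, a kinase that phosphorylates TCF/LEF factors and loosens them from DNA, was lower at an unadjusted p under 0.05 in each line against the shared controls. It was at 42.9, 36.5, 39.8 and 43.0 FPKM in controls and at 32.1, 37.9, 33.9 and 34.7 FPKM in APC cKOs, where it differed by -0.23 (limma adjusted p = 0.352). The differences in β-cat cOEs and APC/β-cat cKOs were -0.19 and -0.18 (adjusted p = 0.946 and 0.315). Cdc73 is a Paf1 complex subunit that binds β-cat. Among genes of this list with an unadjusted p under 0.05 against controls, it alone had groups without overlap. It was at 10.7 to 11.8 FPKM in controls and 8.02 to 10.05 FPKM in APC/β-cat cKOs (difference -0.31, standard error 0.082, limma adjusted p = 0.174). Of all genes, 5.21% had groups without overlap in that comparison.

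Of 11 Wnt target genes, the readout of the TCF/LEF factors, 9 passed the filter and 0 were called against controls. At an unadjusted p under 0.05, 3 were higher in APC cKOs (Axin2, Ccnd1 and Notum), 1 in APC/β-cat cKOs (Ccnd1) and 0 in β-cat cOEs, and 0 were lower, where 10%, 14.2% and 5.07% of all genes passed this p in either direction. Axin2, a feedback inhibitor that is induced by β-cat in most tissues, was at 6.26, 4.75, 5.81 and 6.01 FPKM in controls and 8.40, 6.03, 7.65 and 6.61 FPKM in APC cKOs, with overlapping groups. Its difference was 0.32 (0.078 to 0.56, limma adjusted p = 0.371). Against APC/β-cat cKOs, at 4.52 to 5.70 FPKM, the groups did not overlap (5.49% of all genes did not), and Axin2 was higher in APC cKOs by 0.47 (0.23 to 0.71, unadjusted p = 0.00082, limma adjusted p = 0.129), which did not pass the test. Of the 9 genes, Ccnd1 in APC/β-cat cKOs, made to lack β-cat, had the smallest unadjusted limma p against controls (0.0015). Ccnd1 was higher there by 0.64 (limma adjusted p = 0.168), though it was called with sex as a covariate. Its levels were 12.2 to 21.9 FPKM beside 9.33 to 14.2 FPKM in controls, with overlapping groups. In APC cKOs Ccnd1 was higher by 0.36 (adjusted p = 0.492) and Notum by 1.02 (adjusted p = 0.358). The median difference of the 9 genes was -0.022 among APC/β-cat cKOs, 0.052 among β-cat cOEs and 0.096 in APC cKOs.

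Markers of other cell types were read beside the 10 genes, since TCF/LEF and TLE genes are also expressed outside excitatory neurons. Of 61 genes tested in 12 marker lists, 0 were called against controls. At an unadjusted p under 0.05, 4 were higher and 2 lower in APC/β-cat cKOs, 1 higher and 3 lower in β-cat cOEs, and 7 higher and 10 lower in APC cKOs, where 14.2%, 5.07% and 10% of all genes passed this p. In APC cKOs the mature oligodendrocyte markers Mag, Mbp and Mobp were lower at that p, by differences of -0.24, -0.37 and -0.34 on the log2 scale (limma adjusted p = 0.451, 0.320 and 0.367). Of 6 endothelial markers 3 (Flt1, Ly6c1 and Slco1a4) were lower, with sums of 52.2 to 68.0 FPKM beside 69.7 to 80.8 FPKM, and of 5 neuroblast markers 2 (Igfbpl1 and Sox11) were higher, with sums of 16.9 to 62.6 FPKM beside 13.4 to 32.9 FPKM. Between APC cKOs and APC/β-cat cKOs 0 markers were called, and 5 were higher and 11 lower at that p (10.3% of all genes). Mag, Mbp and Mobp differed there by -0.53, -0.58 and -0.52 (limma adjusted p = 0.0560, 0.0609 and 0.112), lower in APC cKOs, while 9 of the 10 nuclear factors were higher in mean. No marker in these lists was at 0 in all libraries. The part of these cell types in the values of the 10 genes was not tested.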

How the data were processed

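RNA from the prefrontal cortex of 16 mice, 4 per genotype, was measured by the authors with stranded poly(A) libraries (Illumina TruSeq), and genotypes were read from the sample labels. The authors mapped the reads to mm10 with TopHat2 2.0.10 and made FPKM with Cufflinks2, and Cuffdiff 2.1.1 is named in the submitters' notes. The deposited table holds log2 values, read as log2(FPKM + 1), and its confidence and status columns are empty. Base and offset are not stated: FPKM times transcript length in kilobases sums to 1137175 to 1213206 per library if read as log2 and to 9603369 to 10533451 if read as natural log, for 18557 genes with a GENCODE length. The test had been planned for FPKM, so the values were transformed back and the plan was otherwise followed.

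Genes whose mean reached 0.5 FPKM were tested on log2(FPKM + 0.1) with limma 3.58.1 in R 4.3.3 (lmFit, contrasts.fit, eBayes with a trend) and Benjamini-Hochberg adjustment. Fold changes on this scale understate the change of low genes. On simulated data for APC cKOs against controls, with 13978 genes, the test called 96% of 100 genes with a true log2 change of 2 and 88% of 100 with a change of 1. So many true changes make the adjusted threshold easier to reach than in these data, where 6 genes were called. The changed genes were also drawn from all tested genes. These shares therefore do not apply to the TCF/LEF factors, whose intervals were wide. Figures were drawn with matplotlib 3.10.9, and tables with pandas 2.3.3 and numpy 2.4.6 under Python 3.11.15. All 10 genes were named in every comparison. A gene of another list was named where its unadjusted p was under 0.05 and its groups did not overlap, and the likeness rule took 2 genes each. The likeness for Tle3 and the values of 1 marker are not reported here. Axin2, Ccnd1, Notum, Tle4, Aes, Pygo1, Nlk, Hdac1, Cby1, Ssbp2 and the single markers were chosen after their values were seen. The 10 genes, the 14 gene lists and the tests were chosen with earlier results of these data known. Libraries are numbered in accession order within a genotype. Nothing states how the 4 mice of a genotype were related or when their libraries were made. So p-values only set a difference against the spread between these libraries, which the model of all 16 libraries estimates over the 4 genotypes together.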

Additional observations from a re-analysis of the deposited data

Results flagged for a closer look

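Of 40 combinations of gene and genotype, 2 held a library far from the other 3 of its group, by the ratio of its gap to the range of the group. Chance gives about 1 in 20, or 2.0 here. Tcf7l2 in β-cat cOEs had a ratio of 0.837, with library 3 at 0.452 FPKM below the others at 0.744 to 0.801 FPKM. Tle1 in APC cKOs had a ratio of 0.831, with library 3 at 8.14 FPKM above the others at 5.52 to 5.96 FPKM.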

How the results depend on the processing

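The 10 genes were compared again under 26 alternatives, of which 16 left out a library. The others changed the pseudocount (1 FPKM), the filter (none, or a mean of 2 FPKM or more), the scaling (quantile, median-of-ratios), the trend or the samples (only the groups compared), or added sex or a replicate block by title number or column number. The last was chosen after seeing the data. None of the 10 genes was called in any comparison that was run (0 of 10). With the mean of 2 FPKM or more only 6 of them were tested, since the TCF/LEF factors fell under it, and with only the groups compared just the pairwise comparisons were run. The smallest adjusted p was 0.123, for Bcl9 in APC/β-cat cKOs without APC/β-cat cKO library 1. All 1782 recomputed differences moved by less than the spread between libraries, and 97 changed sign, all of them uncalled. Leaving out 1 of 4 libraries can hardly move a group mean by more than that spread. For those 16 alternatives the size of the move was therefore no test of stability. Nor was it for the changes of filter, trend or samples (only the groups compared), or for the block by column number. These left each difference as it was and could change only its p-value. A library left out of a genotype outside the comparison also left the difference unchanged.

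At an unadjusted p under 0.05 in place of the adjusted threshold, the counts against controls were 1 of the 10 genes in APC/β-cat cKOs. For the other nuclear Wnt genes they were 9 in APC/β-cat cKOs and 2 in each other line, and for Wnt targets 3 in APC cKOs and 1 in APC/β-cat cKOs. With sex as a covariate, 1 Wnt target, Ccnd1, was called in APC/β-cat cKOs. The female libraries, control library 1 (14.2 FPKM) and APC cKO library 1 (17.3 FPKM), had the highest Ccnd1 of their groups. The cause was not tested.

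Over 21 pairs of libraries with the same title number, the correlation of deviations ran from -0.22 to 0.32 with a median of -0.069. Over 75 pairs with different numbers it ran from -0.28 to 0.22 with a median of 0.0053. The median was not raised by a shared number, but the highest value was of a same-number pair. These values cannot settle whether a number stands for anything shared. With the replicate block by title number 0 of 10 genes were called against controls, and Bcl9 in APC/β-cat cKOs was at -0.22 (unadjusted p = 0.0686). Without fragment counts, depth could not be set against the low values of the TCF/LEF factors.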
